A study of Mus musculus with 11 samples.

Results

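The 38 Hox genes listed for the 4 mouse Hox clusters were described, out of 49554 genes placed on chromosomes 1 to 19 and X. They were chosen by name: 10 in HoxA, 10 in HoxB, 9 in HoxC and 9 in HoxD. Hox genes encode homeodomain transcription factors that give embryonic cells their position along the head-to-tail axis, and within a cluster the gene order follows the order of use along that axis. In embryonic stem cells the clusters are textbook targets of Polycomb, whose enzyme Ezh2 places H3K27me3 on silent developmental genes. Their CpG-rich DNA is usually kept free of DNA methylation.

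All samples were E14 mouse embryonic stem cells (129/Ola background), a single line grown in serum with LIF, a cytokine that holds them in the undifferentiated state. CUT&Tag-BS cuts out chromatin bound by an antibody with a tethered transposase and bisulfite-sequences the fragments, so that each CpG call reads DNA methylation on DNA carrying the mark. Bisulfite libraries were made for H3K27me3 from 4000, 20000, 100000 and 250000 cells, and for H3K4me1 (enhancers and promoter flanks) and H3K9me3 (heterochromatin) from 250000 cells. Each of the 2 latter marks has a run 1 and a run 2, which were counted as 1 library sequenced again, and each mark has 1 control library prepared without bisulfite. The labels do not say that libraries came from separate cultures, so the spread between them may be technical.

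No RNA was measured, so nothing here gives the expression of a Hox gene. The stem cell label was checked through 8 stem cell marker genes (Pou5f1, Nanog, Sox2, Klf4, Esrrb, Zfp42, Tdgf1, Dppa5a). Of these, 8 of 8 overlapped an H3K4me1 peak, 1 overlapped an H3K27me3 peak and 0 overlapped an H3K9me3 peak. Over all genes the shares were 29.4%, 25.95% and 11.5%. With only 8 genes, the H3K27me3 and H3K9me3 counts cannot be set apart from these shares and say little about the label. The bisulfite libraries held from 377316 calls (H3K27me3, 4000 cells) to 37159887 calls (H3K27me3, 250000 cells) on these chromosomes. A methylation level is the share of calls that were methylated, and it pools all cells, so methylation in some of the cells and on 1 of the alleles cannot be told apart. Bisulfite reads methylated and hydroxymethylated cytosine alike. A gene window is the gene body plus 2 kb on both sides. Intervals are 95% Wilson intervals and cover counting error only, since calls on the same fragment and PCR copies are not independent molecules.

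In mm10 the listed genes span chr6:52162417-52260880 (HoxA, Hoxa2 to Hoxa13), chr11:96194316-96368254 (HoxB, Hoxb13 to Hoxb1), chr15:102921131-103036856 (HoxC, Hoxc13 to Hoxc4) and chr2:74668225-74765142 (HoxD, Hoxd13 to Hoxd1). These spans hold 2947, 3637, 2484 and 2727 CpGs. The windows of 27 of the 38 members overlap another member's window, so neighbouring values share calls. The annotated Hoxa3, Hoxb3 and Hoxd3 genes are long, and each spans other members.

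The promoters below show the range of sequence and methylation in the clusters: in each cluster the promoter with the lowest and the one with the highest level in the H3K27me3 library from 250000 cells, with every CG in capitals. They run from 250 bases before to 50 after an annotated start, in mm10 (RefSeq, GRCm38.p6), 5′ to 3′ on the gene's strand. The table matched 22 of the 38 members with 24 promoters. Only Hoxc4 was matched in HoxC, and a gene may have other starts. All 416 CG dinucleotides of these promoters were found at the same positions in the deposited CpG table.

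Hoxa13 promoter: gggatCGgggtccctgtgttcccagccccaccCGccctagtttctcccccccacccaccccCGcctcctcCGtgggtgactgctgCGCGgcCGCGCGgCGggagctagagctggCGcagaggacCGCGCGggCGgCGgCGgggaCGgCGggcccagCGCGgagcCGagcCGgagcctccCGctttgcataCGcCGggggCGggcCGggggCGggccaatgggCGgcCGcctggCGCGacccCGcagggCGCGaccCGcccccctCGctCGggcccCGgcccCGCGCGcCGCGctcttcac
Hoxa7 promoter: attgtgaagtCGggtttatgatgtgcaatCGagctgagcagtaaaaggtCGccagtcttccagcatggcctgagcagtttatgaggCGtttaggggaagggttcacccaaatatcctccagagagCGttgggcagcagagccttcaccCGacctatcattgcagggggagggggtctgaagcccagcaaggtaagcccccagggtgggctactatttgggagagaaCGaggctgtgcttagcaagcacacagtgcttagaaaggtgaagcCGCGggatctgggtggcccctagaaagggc
Hoxb4 promoter: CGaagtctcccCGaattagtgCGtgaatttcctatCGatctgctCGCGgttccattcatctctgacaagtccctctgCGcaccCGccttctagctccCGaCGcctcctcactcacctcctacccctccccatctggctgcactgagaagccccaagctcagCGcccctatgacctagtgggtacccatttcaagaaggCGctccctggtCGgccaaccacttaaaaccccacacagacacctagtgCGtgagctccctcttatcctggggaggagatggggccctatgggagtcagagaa
Hoxb8 promoter: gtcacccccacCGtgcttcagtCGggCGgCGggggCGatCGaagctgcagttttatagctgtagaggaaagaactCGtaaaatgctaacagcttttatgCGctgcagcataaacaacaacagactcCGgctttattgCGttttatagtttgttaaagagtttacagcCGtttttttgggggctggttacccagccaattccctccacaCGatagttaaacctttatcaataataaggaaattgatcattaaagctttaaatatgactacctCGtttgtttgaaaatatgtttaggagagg
Hoxc4 promoter: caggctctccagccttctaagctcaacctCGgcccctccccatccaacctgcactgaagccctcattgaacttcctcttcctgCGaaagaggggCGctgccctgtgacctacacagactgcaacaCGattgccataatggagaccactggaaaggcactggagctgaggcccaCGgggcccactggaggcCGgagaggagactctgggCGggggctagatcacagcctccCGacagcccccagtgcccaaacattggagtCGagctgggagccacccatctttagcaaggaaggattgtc
Hoxd3 promoter: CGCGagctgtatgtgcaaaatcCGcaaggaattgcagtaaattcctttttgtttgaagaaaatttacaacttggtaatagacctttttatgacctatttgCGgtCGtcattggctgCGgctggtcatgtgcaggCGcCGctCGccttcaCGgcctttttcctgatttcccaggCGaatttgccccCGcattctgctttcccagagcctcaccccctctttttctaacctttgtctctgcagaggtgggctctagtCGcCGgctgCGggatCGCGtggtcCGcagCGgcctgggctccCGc
Hoxd4 promoter: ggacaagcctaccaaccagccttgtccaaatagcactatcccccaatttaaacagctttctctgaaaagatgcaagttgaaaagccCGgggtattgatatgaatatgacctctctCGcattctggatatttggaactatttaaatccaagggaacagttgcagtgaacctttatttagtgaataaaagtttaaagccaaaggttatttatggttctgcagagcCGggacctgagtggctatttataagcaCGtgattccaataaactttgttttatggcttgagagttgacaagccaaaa

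Hoxa13 (chr6:52260831-52261130, minus strand), a gene of the hand and foot plate, had the most CpGs of the 24 promoters, 45 in 300 bases, and the lowest level, 0.215% of 1393 calls (interval 0.0733 to 0.631%). Hoxd4 (chr2:74721728-74722027, plus strand), a gene of the hindbrain and neck, had 4 CpGs and the highest level, 82.5% of 40 calls (interval 68.05 to 91.3%). These 300 bases cover a single annotated start and do not stand for the whole gene. Inside Hoxd4 an H3K4me1 peak (chr2:74727327-74728997) held 78 CpGs at 11.7% of 6261 calls in the same H3K27me3 library. CpG number alone did not order the promoters: 2 others also had 4 CpGs, Hoxd11 at 0.541% of 185 calls and Hoxa9 at 30.8% of 78 calls.

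Hoxa7 (chr6:52218524-52218823, minus strand), a gene of the thoracic skeleton, had 9 CpGs at 31.6% of 659 calls. Inside Hoxa7 an H3K4me1 peak (chr6:52217352-52217852) held 34 CpGs at 0.589% of 1699 calls, and another (chr6:52215972-52216487) held 12 CpGs at 6.72% of 521 calls. The promoter of Hoxc4 (chr15:103034145-103034444, plus strand), a gene of the neck and upper trunk, had 9 CpGs like that of Hoxa7 and stood at 19.7% of 1018 calls. Hoxb4 (chr11:96318017-96318316, plus strand), known from blood stem cells, had 14 CpGs at 1.81% of 992 calls. Hoxb8 (chr11:96281655-96281954, plus strand), a gene of the trunk, had 13 CpGs at 11.2% of 383 calls, so promoters of nearly the same CpG number differed beyond their intervals (1.15 to 2.85% and 8.44 to 14.8%). Hoxd3 (chr2:74711743-74712042, plus strand), a gene of the neck vertebrae, had 20 CpGs at 0.292% of 685 calls. In the library from 100000 cells the same 7 promoters stood in nearly the same places, with Hoxa13 at 0.138%, Hoxd3 at 1.05%, Hoxb4 at 2.05%, Hoxb8 at 11.4%, Hoxc4 at 19.5%, Hoxa7 at 31.3% and Hoxd4 at 85.7%.

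Over the 24 promoters the median level was 4.29%, 15 were under 5% and 17 under 10%. Their median was 14.5 CG per promoter, counted on 1 strand because CG reads the same on both, against 7 over 32851 promoters of the same length. At least 1 CG was present in 94.6% of all those promoters, and 1.93% had as many as Hoxa13. In H3K4me1 run 2 the promoters had few calls: Hoxa7 had 8, Hoxb8 1 and Hoxd4 0, while Hoxc4 stood at 28.9% of 45 calls and Hoxb4 at 0% of 40 calls, which allows up to 7.5%.

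H3K27me3 covered every listed Hox gene from end to end. All 38 windows lay wholly inside peaks of the unified H3K27me3 list, the single list per mark that the authors deposited beside those of each library, as did 2.71% of all gene windows and 3.09% of protein-coding ones. The H3K27me3 domains over the clusters were among the widest in the genome. In the list from 250000 cells, 1 peak of 129311 bp held HoxA, 1 of 174459 bp held HoxC and 1 of 127045 bp held HoxD, ranking 4, 2 and 5 by width among 13914 peaks. In HoxB 1 peak of 134832 bp (rank 3) held Hoxb9 to Hoxb1, and Hoxb13 lay in a separate peak of 49646 bp (rank 50). Hoxb13, a gene of the tail bud and prostate, is set apart from Hoxb9 by a stretch of DNA with no listed gene, measured here as 70719 bp between the flanks of the 2 genes and called the HoxB gap. In the gap 54.0% of bases were under unified H3K27me3 peaks.

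The domains passed the outer genes on both sides, by 13291 and 17556 bp in HoxA, 18626 and 40107 bp in HoxC and 22869 and 7258 bp in HoxD. Beyond Hoxd13 the domain took in Evx2, a homeobox gene next to HoxD. The Evx2 window was fully covered, with a level of 7.85%. Past HoxA, the window of Evx1, the HoxA-side relative, was fully covered by the unified list too, with a level of 11.8%. Of the 10 neighbour genes listed, 9 were matched, and these 2 were the fully covered ones. Smug1 was covered over 39.8% and Skap1 over 6.502% of the window, and Lnpk, Mtx2, Skap2, Atf7 and Calcoco1 over 0%.

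Peak lists from fewer cells held less of this. The list from 4000 cells placed 13 of its 492 peaks in the clusters: 8 in HoxC, 3 in HoxD, 2 in HoxA and 0 in HoxB. These reached the windows of 10 of 38 members, against 1.15% of all genes: Hoxa3, Hoxa7, Hoxc6, Hoxc9, Hoxc10, Hoxc11, Hoxd3, Hoxd10, Hoxd11 and Hoxd12. The list from 20000 cells fully covered 33 of 38 members, against 0.733% of all genes. The list from the control without bisulfite overlapped 38 of 38, against 25.4% of all genes.

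The number of CpG calls gave the same order of marks. Calls per CpG over the 4 clusters, divided by the genome mean of the library, were 19.6, 22.3, 26.2 and 30.2 in the H3K27me3 libraries from 4000, 20000, 100000 and 250000 cells. For H3K4me1 the same ratio was 4.72 in run 1 and 4.66 in run 2. For H3K9me3 it was 0.116 in run 1 and 0.107 in run 2. The clusters hold 0.0552% of the CpGs and took 1.67% of the calls of the library from 250000 cells. HoxC had the most in each H3K27me3 library, from 28.1 at 4000 cells to 44.9 at 250000 cells, while at these 2 cell numbers HoxA had 18.4 and 27.9, HoxB 14.5 and 22.1 and HoxD 19.9 and 30.1. PCR copies can add to such counts, and the treatment of duplicate reads is not given in the sources used here.

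Among 36856 gene windows with at least 50 CpGs, Hoxc10, a gene of the hindlimb and lumbar motor neurons, ranked 1 in calls per CpG in the library from 250000 cells, with 106 calls per CpG. Hoxc6, a gene of the brachial and thoracic trunk, ranked 9 with 91.6 calls per CpG, and Hoxc9 ranked 18. In all, 26 of 38 members were in the top 1% of genes, with Hoxa11 (rank 354) the last inside and Hoxa5 (rank 420) the next outside. The lowest member was Hoxa4 at rank 898, still 16.8 times the genome mean.

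**Figure D1:**
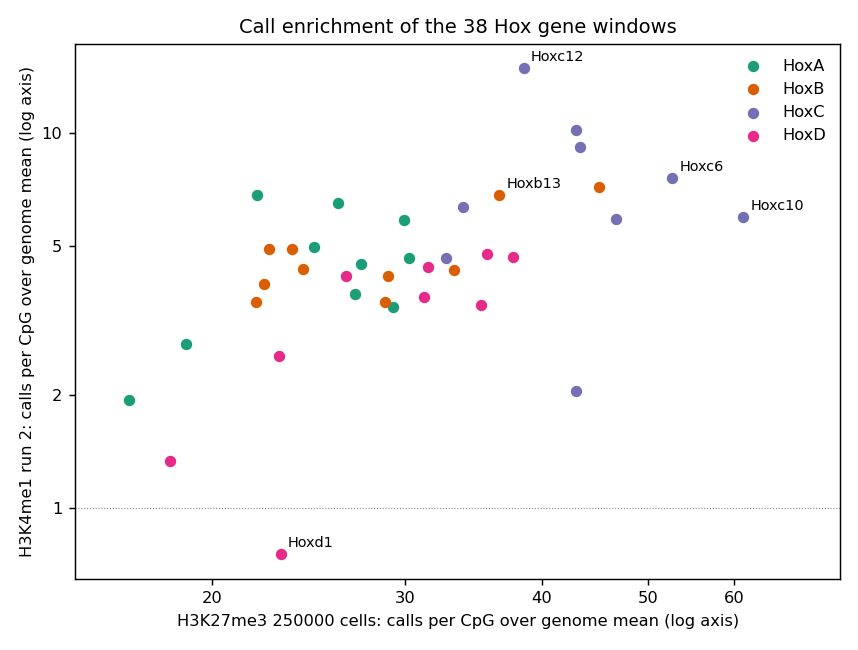
Calls per CpG over the genome mean in the H3K27me3 library from 250000 cells (x, log axis) and in H3K4me1 run 2 (y, log axis), 1 point for each of the 38 Hox gene windows, coloured by cluster. The 3 points farthest right are HoxC genes, up to 61.1 for Hoxc10, and Hoxd1 is the 1 point below the dotted line at 1, at 0.754.

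H3K4me1, the mark of enhancers and promoter flanks, was patchy over the same genes. Of 38 members, 35 overlapped a unified H3K4me1 peak, against 29.4% of all genes, and 0 were fully covered. Hoxd1, Hoxd8 and Hoxd13 overlapped none. Coverage by H3K4me1 peaks reached 50% of the window in 5 members, against 3.25% of all genes: Hoxc12 (96.1%), Hoxb13 (60.6%), Hoxa11 (56.8%), Hoxc11 (52.4%) and Hoxa5 (51.7%). In the lists of single libraries 2 members reached it in run 1, 1 in run 2 and 3 in the control, with Hoxc12 in each and Hoxa11 and Hoxa5 in none. The Hoxc12 peak, chr15:102930285-102940385, was the widest H3K4me1 peak in the clusters at 10101 bp, and 1.72% of the 37244 unified H3K4me1 peaks were wider. Hoxc12 was also the 1 member in the top 1% of genes by H3K4me1 calls per CpG (rank 289). Hoxc12 belongs to the posterior end of its cluster, next to Hoxc13.

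Unified H3K4me1 peaks numbered 25 in HoxA, 27 in HoxB, 17 in HoxC and 14 in HoxD, and covered 30.1%, 20.1%, 33.1% and 19.1% of each span. Hoxd1, a gene of the hindbrain region and sensory neurons, had 0.754 times the genome mean of H3K4me1 calls per CpG. Hoxd8 had 1.34 and Hoxd13, the gene of the digits, 2.55 times that mean. The other members lay between 1.95 (Hoxa4) and 14.9 (Hoxc12).

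H3K9me3 was near absent. No member overlapped an H3K9me3 peak in the unified list, against 11.5% of all genes, nor in any of the 3 H3K9me3 library lists. In H3K9me3 run 2 only 6 members had 20 or more calls, the most being 36 in Hoxb3. Over whole clusters the few calls of run 2 were methylated at 17.5% of 57 calls in HoxA (interval 9.82 to 29.4%), 70.4% of 115 in HoxB (61.5 to 78.0%), 18.4% of 152 in HoxC (13.1 to 25.3%) and 40.8% of 49 in HoxD (28.2 to 54.8%). The HoxB gap held 47 of the 115 HoxB calls, at 87.2%, and the part from Hoxb9 to Hoxb1 stood at 57.1% of 63 calls (44.9 to 68.6%). Genome-wide the level of that run was 81.9%.

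Methylation of the clusters was low in every H3K27me3 library. The level of HoxA was 10.52%, 11.9%, 12.0% and 12.3% in the libraries from 4000, 20000, 100000 and 250000 cells. HoxB stood at 12.9%, 12.97%, 13.6% and 13.8%, HoxC at 11.5%, 11.6%, 11.8% and 11.8%, and HoxD at 12.7%, 13.1%, 13.6% and 13.5%. The 4 clusters thus lay within a few points of each other, while whole libraries stood between 32.5% and 33.4%. In H3K4me1 run 1 and run 2 the levels were 11.3% and 10.6% in HoxA, 11.8% and 11.2% in HoxB, 10.7% and 10.6% in HoxC, and 12.5% and 11.9% in HoxD.

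The means over the 4 H3K27me3 libraries were 11.7% ± 0.78 (SD, n = 4) for HoxA, 13.3% ± 0.44 for HoxB, 11.7% ± 0.12 for HoxC and 13.2% ± 0.37 for HoxD. HoxB and HoxD were each higher than HoxA and HoxC in 4 of 4 libraries, with mean differences of 1.57 to 1.66 points and single libraries between 1.122 and 2.42 points, and HoxA and HoxC differed by 0.000827 points on average, with HoxC higher in 1 of 4. An exact paired permutation test over 4 libraries (two-sided) cannot go below p = 0.125, which these 4 pairs reached (adjusted p = 0.1875 over 6 pairs of clusters). The place of HoxB depended on its borders. Without the gap HoxB stood at 12.4% ± 0.36 (SD, n = 4), which is 0.71 points above HoxA and 0.86 points below HoxD, each in 4 of 4 libraries. Without Hoxb13 as well, from Hoxb9 to Hoxb1, it stood at 10.99% ± 0.70 (SD, n = 4), which is 0.67 points below HoxA. Both spans were chosen after the values were seen.

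Member by member the range was wider. In the library from 250000 cells, where all 38 members had 20 or more calls, 19 of 38 windows were under 10% methylated, against 5.76% of all genes, and 34 were under 20%, against 17.1%. The median member stood at 10.4% and the median gene at 52.6%. Counts under 10% in the smaller H3K27me3 libraries were 18 at 100000 cells (6.65% of all genes), 20 at 20000 cells (11.5%) and 25 at 4000 cells (25.6%). In H3K4me1 run 2 the count was 21 of 38, against 9% of all genes. The count under 10% in the library from 250000 cells was 9 when windows reached 5 kb past the gene, where the share of all genes was 2.65%. Between the libraries from 100000 and 250000 cells, no member moved by more than 1.98 points.

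The lowest member of each cluster was low in every H3K27me3 and H3K4me1 library. Hoxd11, a gene of the forearm and limb, stood at 1.59%, 2.59%, 2.75% and 2.74% in the H3K27me3 libraries from 4000 to 250000 cells and at 1.72% and 2.40% in the H3K4me1 runs. Hoxc11, a posterior gene of the hindlimb region, stood at 0.847%, 4.15%, 3.50% and 3.56%, and at 2.84% and 2.45%. Hoxb2, a gene of the hindbrain and facial motor neurons, stood at 4.88%, 4.34%, 3.43% and 3.72%, and at 3.94% and 5.45%. In these 3 genes the H3K27me3 and H3K4me1 values overlapped. Hoxa11, a gene of limb and uterus, stood at 6.12%, 4.84%, 5.17% and 5.56%, and at 9.73% and 8.38%, so both H3K4me1 runs lay above the 4 H3K27me3 libraries.

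The highest member of each cluster was Hoxc4, Hoxb13, Hoxd4 or Hoxa7, and Hoxd12 (24.5%) was above Hoxa7. Hoxc4 stood at 40.7%, 31.0%, 29.5% and 30.4% in the H3K27me3 libraries and at 16.9% and 20.3% in the H3K4me1 runs, with no overlap between the marks. Hoxb13 stood at 29.2%, 26.7%, 26.7% and 28.4%, and at 28.1% and 22.7%. Hoxd4 stood at 27.4%, 26.3%, 26.5% and 27.02%, and at 36.9% and 29.2%, both runs above every H3K27me3 value. Hoxa7 stood at 19.6%, 19.2%, 20.04% and 19.6%, and at 14.3% and 15.5%, below every H3K27me3 value. Both runs come from 1 H3K4me1 library, so their positions are not repeated observations. Fisher's exact test, described below, set run 2 against the deepest H3K27me3 library over all CpGs with calls. Of Hoxc4, Hoxd4 and Hoxa7, only Hoxc4 passed this exact test, at -10.06 points (adjusted p = 1.79e-07). By the same exact test Hoxd4 differed by 2.17 points (adjusted p = 0.409) and Hoxa7 by -4.19 points (adjusted p = 0.111).

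**Figure D2:**
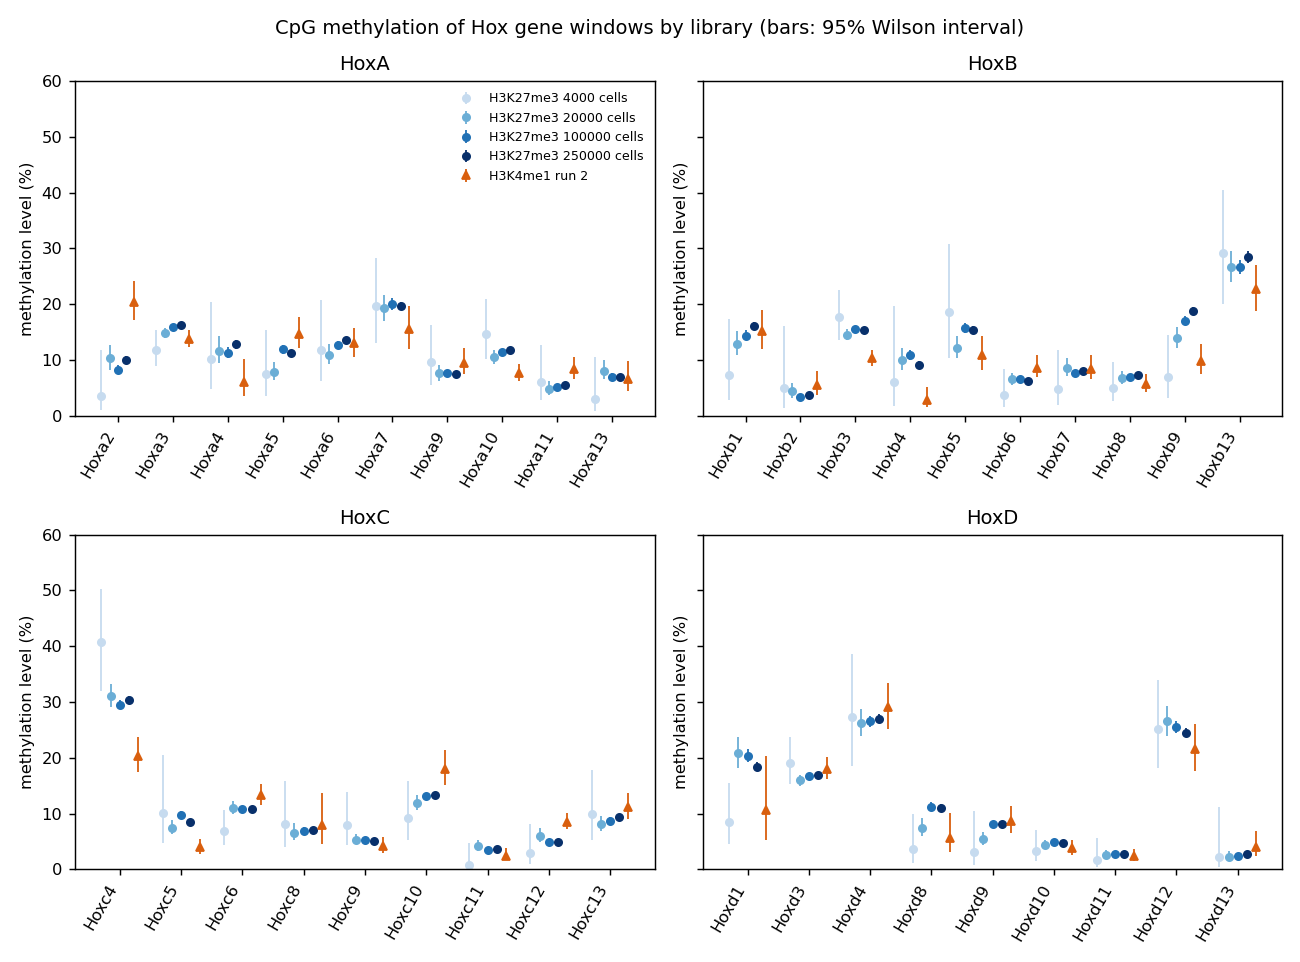
Methylation level (y, percent) of each Hox gene window (x, in order of paralogue number) in the 4 H3K27me3 libraries (blue circles, darker with more cells) and H3K4me1 run 2 (orange triangles), with 95% Wilson intervals. In the library from 250000 cells Hoxc4, Hoxb13, Hoxd4 and Hoxa7 are the highest of their clusters, and intervals are widest at 4000 cells.

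Median levels were lower at higher paralogue numbers, which count from the anterior end of a cluster. In the library from 250000 cells the median of the 11 members numbered 1 to 4 was 16.004%, of the 11 numbered 5 to 8 10.8% and of the 16 numbered 9 to 13 7.20%, with 3, 5 and 11 members under 10%. The groups overlapped widely: the anterior Hoxb2 stood at 3.72% and the posterior Hoxb13 and Hoxd12 at 28.4% and 24.5%. In H3K4me1 run 2 the 3 medians were 13.8%, 8.63% and 8.44%. These are descriptions with no test, since neighbours share calls. The group numbered 1 to 4 also holds the longest windows: Hoxa3 (48009 bp), Hoxb3 (44830 bp), Hoxd3 (40279 bp) and Hoxc4 (22760 bp). The part of window length and CpG number in these medians was not tested.

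The 3 HoxD members without an H3K4me1 peak did not stand together. Hoxd13 stood at 2.13%, 2.23%, 2.34% and 2.78% in the H3K27me3 libraries from 4000 to 250000 cells and at 4.73% and 4.04% in the H3K4me1 runs. Hoxd8, a gene of the trunk, stood at 3.57%, 7.3998%, 11.3% and 11.03%, and at 6.17% and 5.62%. Hoxd1 stood at 8.57%, 20.8%, 20.4% and 18.4%, and at 13.8% of 29 calls and 10.6% of 66 calls. Hoxd13 was among the lowest of the cluster and Hoxd1 among the highest.

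Methylated DNA was next mapped along the clusters. The clusters outside the HoxB gap held 409 bins of 1 kb with at least 10 calls in the library from 250000 cells. Of these, 106 were methylated at 50% or more, against 79% of all such bins, and 159 were under 10%, against 8.77%. The 4 clusters were alike in this: 26 of 97 bins in HoxA, 25 of 103 in HoxB, 29 of 113 in HoxC and 26 of 96 in HoxD stood at 50% or more. The HoxB gap was different in level, with 43 of 59 bins at 50% or more, and it had 10.1 calls per CpG, against 57.2 in the bins of the 4 clusters. With the gap included, methylated bins formed 66 stretches, of which 36 were a single bin, 12 were 2 bins and 18 were 3 or more adjoining bins. The 2 widest of each cluster are given.

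The widest stretch outside the gap was in HoxC, 9 adjoining bins at chr15:103018001-103027000 over the annotated Hoxc4 gene, at 73.1% of 3060 calls, with 74.3% in the library from 100000 cells, 69.1% in that from 20000 cells and 70% of 30 calls in H3K4me1 run 2. The next in HoxD was 8 bins at chr2:74754001-74762000, in DNA between Hoxd3 and Hoxd1, at 74.5% of 1374 calls. In HoxB the widest, 12 bins at chr11:96212001-96224000, lay in the gap at 88.2% of 304 calls, and 7 bins at chr11:96356001-96363000, between Hoxb2 and Hoxb1, stood at 73.3% of 617 calls. The stretches outside the gap had 34.8 (HoxC), 21.5 (HoxD) and 13.1 (HoxB) calls per CpG and lay wholly under unified H3K27me3 peaks. The gap stretch had 2.11 calls per CpG, near the genome mean of 1.74, and 34.7% of it lay under such peaks. Of the 4, only the HoxC stretch overlaps a listed gene.

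In HoxA the 2 widest were 4 bins each, both inside the annotated Hoxa3: chr6:52181001-52185000 at 79.5% of 950 calls and chr6:52193001-52197000 at 58.8% of 1181 calls. The second stretch of HoxC and HoxD was 3 bins: chr15:102944001-102947000 in HoxC, at 79.2% of 1230 calls, and chr2:74742001-74745000 in HoxD, inside Hoxd3, at 71.1% of 682 calls. This HoxC stretch lies over Hotair, a long noncoding RNA gene, and another of 3 bins lies in Hoxc4. CpGs were sparse in these 8 stretches, from 4 to 12 per kb.

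**Figure D3:**
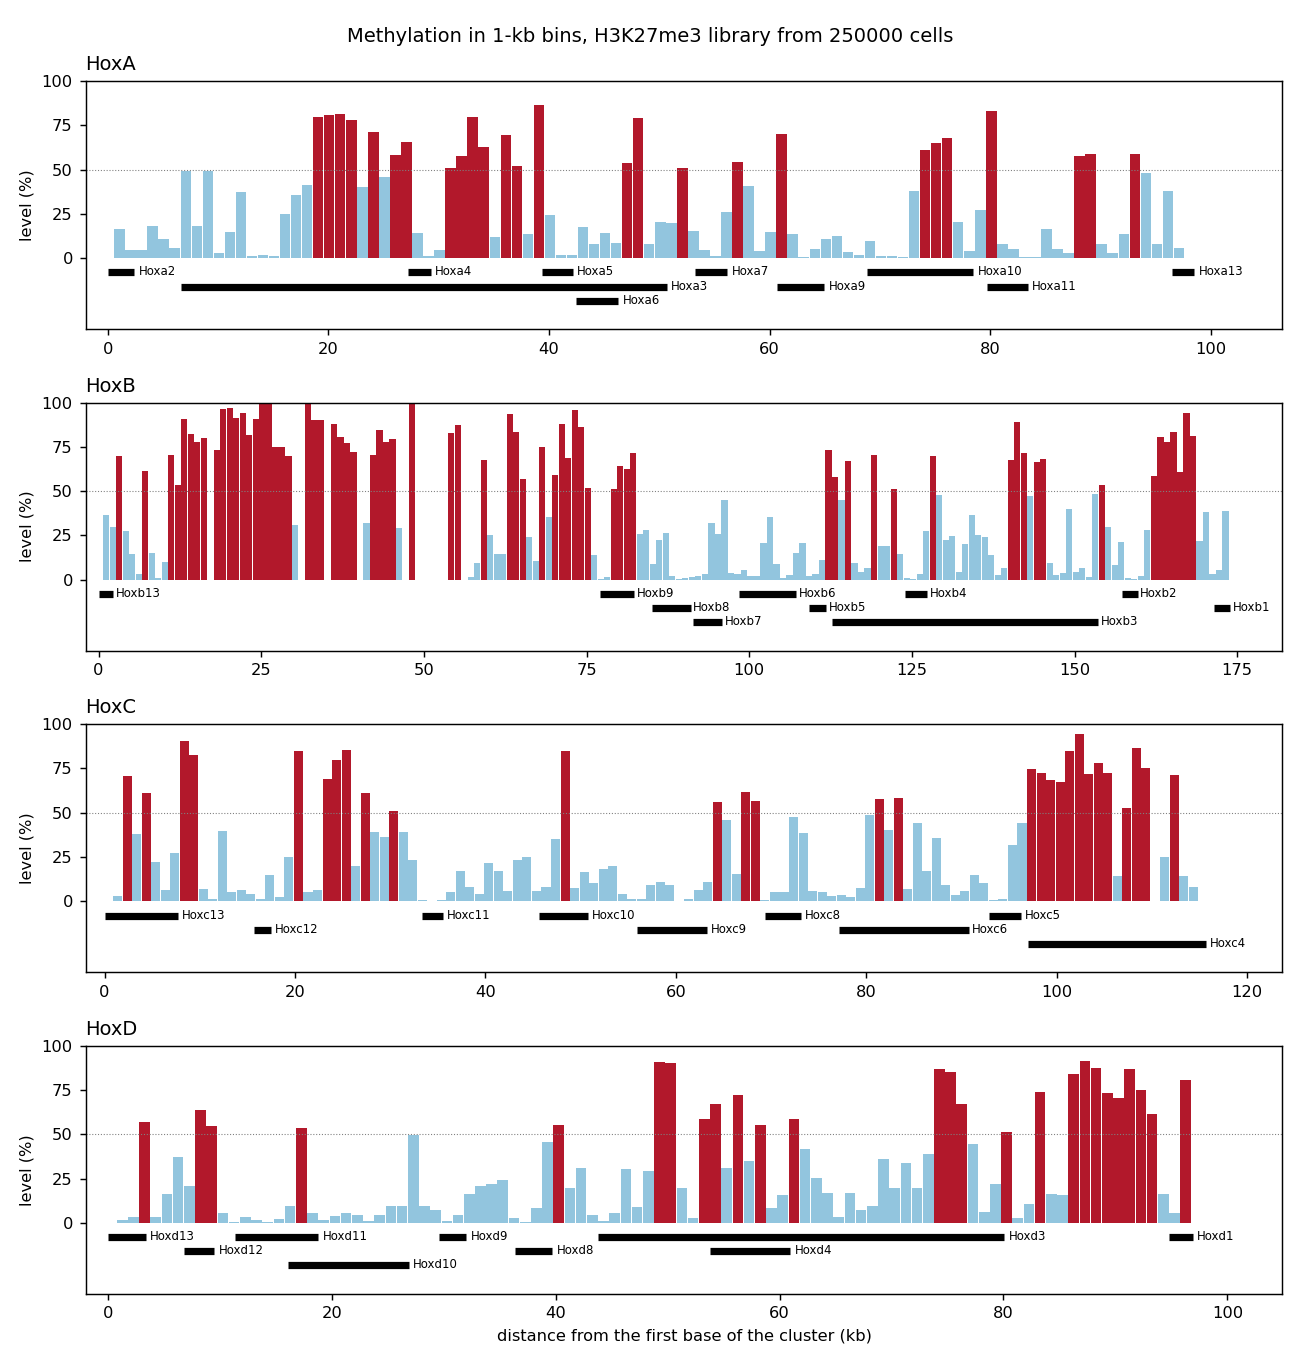
Methylation level (y, percent) of 1-kb bins with at least 10 calls along each cluster (x, kb from the first base of the cluster) in the H3K27me3 library from 250000 cells, with bins at 50% or more in red, other bins in blue and listed genes as black bars. Red blocks stand over the Hoxc4 gene (9 bins), between Hoxd3 and Hoxd1 (8 bins), between Hoxb2 and Hoxb1 (7 bins) and through the HoxB gap.

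Cluster bins with more CpGs had lower levels. Of cluster bins with 1 to 10 CpGs, 73 of 130 (56.2%) stood at 50% or more, with 11 to 20 CpGs 29 of 76 (38.2%), with 21 to 40 CpGs 4 of 117 (3.42%) and with 41 or more 0 of 86. The same shares in H3K27me3 peaks elsewhere were 92.6%, 84.5%, 40.7% and 1.68%. These shares are descriptions, and the difference between Hox bins and other H3K27me3 peaks was not tested. Median levels were 55.6%, 36.5%, 9.42% and 2.65% in the clusters, and 83.6%, 80%, 37.5% and 3.61% in other H3K27me3 peaks. Depth moved with this: the cluster bins had 57.2 calls per CpG and the other H3K27me3 peaks 16.4, and its part in the result was not tested.

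**Figure D4:**
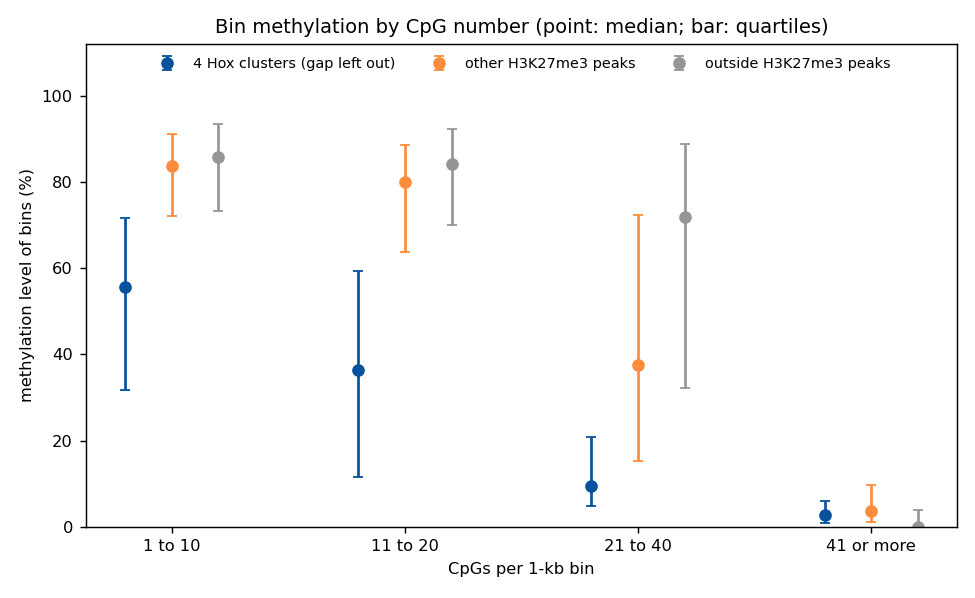
Methylation level (y, percent) of 1-kb bins by number of CpGs per bin (x) in the H3K27me3 library from 250000 cells, for the 4 Hox clusters without the HoxB gap, other H3K27me3 peaks and bins outside them. Points are medians and bars the quartiles: with 21 to 40 CpGs the medians were 9.42% in the clusters and 37.5% in other H3K27me3 peaks.

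Single CpGs with at least 10 calls were mostly at the low end of the scale, and more lay between 20 and 80% than over 80%, as over the whole genome. Under 10% methylation were 69.6% of them in HoxA, 65.2% in HoxB, 66.8% in HoxC and 67.3% in HoxD, and over 80% were 2.35%, 4.44%, 4.28% and 4.46%. Between 20 and 80% lay 18.9%, 22.4%, 19.3% and 18.5%. Over the whole genome, CpGs of that depth were under 10% in 56.3% of cases, between 20 and 80% in 20.97% and over 80% in 15.7%.

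Levels at the outer edges of the domains differed from edge to edge. In HoxD the domain before Hoxd13, which holds Evx2, stood at 9.20% with 38.01 calls per CpG, and the 20 kb before it at 78.9% with 0.370 calls per CpG. In HoxC the 20 kb before the domain stood at 82.4% of 165 calls, and in HoxA at 76.0% of 125 calls, where the domain before the genes stood at 32.2% and 27.3%. Before Hoxb13 the domain stood at 23.8% and the next 20 kb at 61.0% of 1097 calls. The other edges had smaller or opposite steps. Past Hoxd1 the domain stood at 86.7% of 256 calls and the next 20 kb at 65.5% of 348 calls. Past HoxA the levels were 22.1% and 31.1%, and past HoxB 56.7% and 79.2%. Past HoxC the next 20 kb still had 40.01 calls per CpG at 30.7%, and the unified list joined it to the domain in a peak of 247762 bp, the widest of its 18122.

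Within the clusters, DNA under H3K4me1 peaks was less methylated than DNA outside them. In the library from 250000 cells the level inside and outside unified H3K4me1 peaks was 4.996% and 23.0% in HoxA, 5.31% and 24.2% in HoxB, 4.82% and 25.8% in HoxC, and 6.63% and 18.99% in HoxD. H3K4me1 run 2 itself stood at 7.61% inside and 22.8% outside in HoxA, 7.05% and 23.7% in HoxB, 8.94% and 29.9% in HoxC, and 9.46% and 16.3% in HoxD. The peaks hold from 35.2% (HoxD) to 59.9% (HoxC) of the CpGs of a cluster, on 19.1% and 33.1% of its bases. They are thus richer in CpGs than the rest, and the part of CpG number in these levels was not tested.

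The marks were next compared at the same CpGs, which asks whether Hox DNA carrying H3K4me1 is methylated like Hox DNA carrying H3K27me3. Calls at CpGs covered in both H3K4me1 run 2 and the H3K27me3 library from 250000 cells were set against each other per window with Fisher's exact test, two-sided, adjusted by Benjamini-Hochberg over the 17840 genes with 20 or more calls in both. H3K4me1 was higher at 17 of 38 members, against 15.8% of all genes tested, and lower at 0, against 7.89%. At an unadjusted p under 0.05 in the same exact test, 18 members were higher, against 20.2% of all genes, and 0 lower, against 12%. The called members were 5 in HoxA, 4 in HoxB, 6 in HoxC and 2 in HoxD. The median difference was 2.00 points over the members and 0.76 points over all genes. Members were deeper than most genes: their median H3K27me3 calls per CpG were 29.6 times the genome mean, against 0.171 times over all 49554 genes. That median includes genes with too few calls to be tested, and the value over the tested genes alone is not given here. With more calls smaller differences can pass, such as 1.59 points at Hoxc9. The part of depth in these shares was not tested. The test compares 2 libraries, not the marks, and its p-values are too small because calls on the same fragment are not independent.

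Hoxa2, which patterns the hindbrain and branchial arches, had the largest called difference with run 2, but not with run 1 (7.87 points, below Hoxd4, Hoxb1, Hoxd3, Hoxc10 and Hoxc6). Its window stood at 3.45%, 10.3%, 8.20% and 9.98% in the H3K27me3 libraries from 4000 to 250000 cells and at 17.9% and 20.4% in the H3K4me1 runs, which did not overlap. At its 132 shared CpGs the levels were 20.4% of 524 H3K4me1 calls and 9.86% of 5364 H3K27me3 calls, a difference of 10.6 points (Fisher's exact test, adjusted p = 2.34e-10).

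Hoxc10 stood at 9.24%, 11.9%, 13.1% and 13.4% in the H3K27me3 libraries and at 18.4% and 18.0% in the H3K4me1 runs, again without overlap. At 134 shared CpGs the difference was 8.27 points (adjusted p = 5.30e-08 by Fisher's exact test). Hoxc6 stood at 6.95%, 11.04%, 10.9% and 10.8%, and at 15.7% and 13.3%, with a difference of 5.93 points at shared CpGs (adjusted p = 1.81e-11 by the same exact test). These 2 genes were also ranked 1 and 9 in H3K27me3 calls per CpG among gene windows with at least 50 CpGs.

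Hoxd4 differed by 7.52 points at shared CpGs, 29.2% against 21.7%, and by 15.2 points with H3K4me1 run 1. Its neighbour Hoxd3 stood at 19.1%, 15.9%, 16.6% and 16.9% in the H3K27me3 libraries and at 21.5% and 18.1% in the H3K4me1 runs, and differed by 5.56 points at shared CpGs, or 8.84 points with run 1. The windows of these genes overlap, so the differences are not separate.

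Hoxc8, a gene of brachial motor neurons, stood at 8.14%, 6.58%, 6.94% and 7.08% in the H3K27me3 libraries and at 6.85% of 73 calls and 7.91% of 139 calls in the H3K4me1 runs. At its 78 shared CpGs it differed by 5.63 points, and with H3K4me1 run 1 by 5.07 points, which did not pass (adjusted p = 0.0556 by Fisher's exact test). Hoxb1, a hindbrain gene, stood at 7.27%, 12.9%, 14.4% and 16.004%, and at 16.3% and 15.1%, with a difference of 5.30 points at shared CpGs, or 9.57 points with run 1. For both genes the levels over all CpGs overlapped between the marks.

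Hoxa5, a gene of lung and trunk, stood at 7.5%, 7.87%, 11.9% and 11.3% in the H3K27me3 libraries and at 14.9% and 14.7% in the H3K4me1 runs. Hoxa9, a gene of blood progenitors, stood at 9.57%, 7.58%, 7.67% and 7.42%, and at 9.63% and 9.51%. Hoxb6, a gene of the trunk, stood at 3.68%, 6.55%, 6.59% and 6.23%, and at 7.92% and 8.63%. Their differences at shared CpGs were 4.81, 4.597 and 4.36 points. In Hoxa5 and Hoxb6 both H3K4me1 values lay above every H3K27me3 value, and in Hoxa9 the library from 4000 cells lay between them.

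The choice of CpGs decided the direction for some members. Over all CpGs with calls, 7 of 38 members were called higher in H3K4me1 and 11 lower, where 14.4% and 38.5% of all genes were called; of the 10 genes named here Hoxd4, Hoxc8, Hoxd3 and Hoxa9 no longer passed and Hoxb1 changed sign (a difference of -0.88 points). At shared CpGs, when the H3K27me3 level of each CpG was weighted by its H3K4me1 calls, the difference was positive in 36 of 38 members, Hoxd1 and Hoxd8 being the exceptions, and in 17 of the 17 called ones, from 2.43 to 10.7 points, the largest being Hoxd4 (10.7), Hoxc10 (10.04) and Hoxa2 (7.85). That weighting was added after the data were seen.

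**Figure D5:**
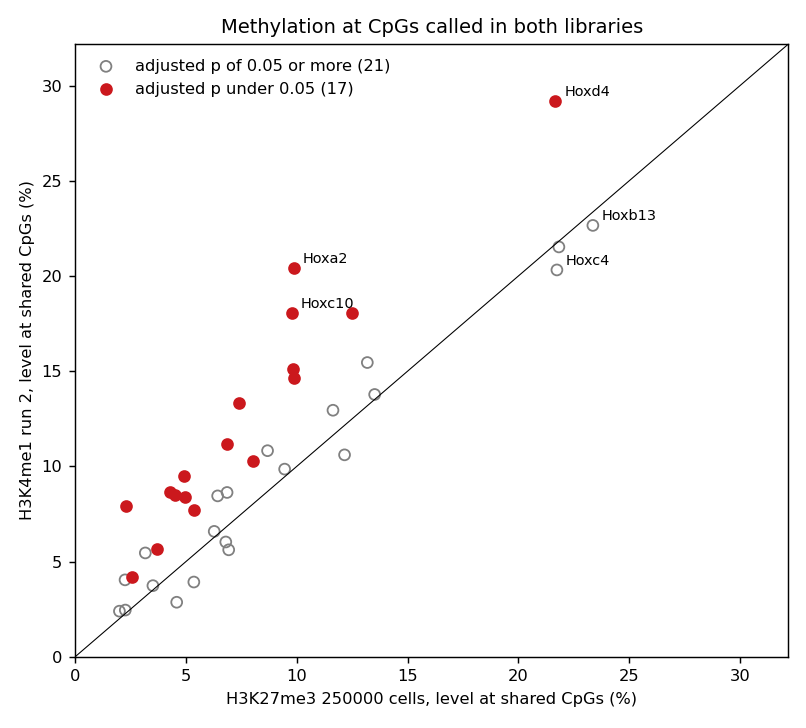
Methylation level at CpGs called in both libraries, H3K27me3 from 250000 cells (x, percent) against H3K4me1 run 2 (y, percent), 1 point for each of the 38 Hox gene windows. The 17 filled points passed Fisher's exact test after adjustment, all lie above the line of equal levels, and Hoxa2 (20.4% against 9.86%) lies farthest from it.

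The microRNA genes of the clusters are shown because pairs of them give mature RNAs with the same seed from different clusters. The mature sequences are from RefSeq (GRCm38.p6), 5′ to 3′, with the seed (bases 2 to 8) in capitals; both miR-10 RNAs share ACCCUGU and both miR-196 RNAs share AGGUAGU.

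miR-10a-5p: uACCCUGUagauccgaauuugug
miR-10b-5p: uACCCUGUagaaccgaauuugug
miR-196a-5p: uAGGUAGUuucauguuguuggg
miR-196b-5p: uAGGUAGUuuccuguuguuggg

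These microRNAs lie among the Hox genes and are known to target Hox transcripts. The windows of all 6 microRNA genes listed and of Hotair, Hottip and Hotairm1 were fully covered by H3K27me3 peaks. The mature miR-196a-5p is encoded at 2 places, chr11:96265187-96265208 (Mir196a-1, in the HoxB gap) and chr15:102973365-102973386 (Mir196a-2, between Hoxc10 and Hoxc9). In the library from 250000 cells the Mir196a-1 window stood at 53.0% of 1019 calls and the Mir196a-2 window at 14.2% of 6621 calls, with 57.0% and 15.9% in the library from 100000 cells. Calls per CpG were 7.70 and 58.5 times the genome mean. The same mature RNA is thus encoded in DNA of different methylation and different H3K27me3 depth. Mir196b (chr6:52230129-52230150 for the mature RNA, in HoxA) stood at 3.36% of 8653 calls.

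Mir10a (chr11:96317186-96317208, next to Hoxb4) stood at 9.65% of 5422 calls and Mir10b (chr2:74726074-74726096, inside the annotated Hoxd4) at 26.5% of 6875 calls, with 9.66% and 23.7% in the library from 100000 cells. Mir615, inside Hoxc5, was the lowest at 2.80%. Of the long noncoding RNA genes, Hotair stood at 23.0%, Hotairm1 at 21.3% and Hottip at 17.9%. These windows overlap those of listed Hox genes, except Mir196a-1 and Hotair.

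Related genes elsewhere were read from lists chosen by function. Of the 6 ParaHox genes, the sister homeobox genes of the Hox clusters, 5 were fully covered by H3K27me3 peaks (Gsx1, Pdx1, Cdx2, Gsx2 and Cdx4), and Cdx1 was covered over 41.01%. Their levels in the library from 250000 cells ran from 8.004% (Gsx1) to 27.3% (Pdx1), and 2 were under 10%. Of the 9 Pbx, Meis and Pknox genes, which encode the DNA-binding partners of Hox proteins, 1 was fully covered (Meis3), and 0 were under 10%. Of 15 genes for Polycomb and Trithorax regulators, 1 was fully covered and under 10%: Bmi1, a Polycomb subunit gene, at 5.598%, with 16.3 times the genome mean of H3K27me3 calls per CpG. Ezh2, the H3K27 methyltransferase gene, had 0.0924 times that mean.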

How the data were processed

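CUT&Tag-BS was read in 8 bisulfite columns of 1 deposited table of 21908008 CpGs. Per the file headers, the authors deposited whole-number counts of methylated calls and of all calls per CpG, not normalized, in 16 count columns. Peak lists, deposited per library and as a unified list per mark, give positions without scores. Per the submitters' processing notes, cutadapt 1.12, Bismark 0.23.0, Bowtie2 2.3.0, HOMER 4.10.3, bedtools 2.29.2 and mm10 were used, with no role given. The treatment of duplicate reads is not given in the sources used here.

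Samples were grouped by mark and cell number from the labels. Both runs of H3K4me1, and both of H3K9me3, were counted as 1 library: their levels were given run by run, since CpGs called once in each H3K4me1 run had the same state in 97.6% of cases, against 77.4% for the pair of calls at CpGs called exactly 2 times in run 2. For H3K9me3 these were 95.9% and 83.5%. Genes on chromosomes 1 to 19 and X came from RefSeq (GRCm38.p6). Levels were methylated calls over all calls in windows (gene body plus 2 kb, at least 20 calls), clusters (first to last listed gene) and 1-kb bins (at least 10 calls). Clusters were compared over 4 H3K27me3 libraries with an exact paired permutation test, and 2 libraries per window with Fisher's exact test and Benjamini-Hochberg adjustment at 0.05, checked on simulated data. Depth ran from 377316 to 37159887 calls per library, and Wilson 95% intervals give the precision.

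Python 3.11.15, numpy 2.4.6, pandas 2.3.3, scipy 1.17.1 and matplotlib 3.10.9 were used. The members and lists were chosen with earlier results of these data known. All 38 members were accounted for. Values in every library were given for the highest and lowest member of each cluster, Hoxb13, the 3 members without an H3K4me1 peak, and the 10 called members with the largest differences. Alternatives changed the CpG set, windows, thresholds, libraries and peak lists. Chromosome Y and unplaced sequence were left out.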

Additional observations from a re-analysis of the deposited data

Results flagged for a closer look

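In 6 of 42 items tested (38 members and 4 clusters), the H3K27me3 library from 4000 cells stood apart from the other 3 H3K27me3 libraries, by the size of its gap over the whole range. Chance gives this in about 1 of 20 groups of 4 values with equal spread. That rate does not hold here, because the library from 4000 cells has the fewest calls and so the widest counting error. Neighbouring genes also share calls. Hoxa9 stood at 9.57% of 115 calls, above 7.42 to 7.67% in the others. Hoxc9 stood at 7.87% of 127 calls, above 5.12 to 5.34%. Hoxc4 stood at 40.7% of 108 calls, above 29.5 to 31.0%.

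The other 3 were low in that library. Hoxc6 stood at 6.95% of 259 calls, below 10.8 to 11.04%. Hoxb6 stood at 3.68% of 136 calls, below 6.23 to 6.59%. Hoxd11 stood at 1.59% of 126 calls, below 2.59 to 2.75%. The Wilson interval at 4000 cells reached the other libraries' values for Hoxa9 (5.43 to 16.3%), Hoxc9 (4.33 to 13.9%), Hoxb6 (1.58 to 8.32%) and Hoxd11 (0.436 to 5.603%). It did not reach them for Hoxc6 (4.44 to 10.7%, the lowest of the others being 10.8%) or Hoxc4 (31.9 to 50.2%, the highest of the others being 31.0%).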

How the results depend on the processing

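Over 4 clusters pooled, the mean H3K27me3 level of 12.4% was 16.05% as a mean of single-CpG levels, 10.1% at CpGs with at least 5 calls and 11.6% over gene windows, and the H3K4me1 level of 11.1% became 14.0% as a mean of single-CpG levels and 10.7% over gene windows. Members under 10% numbered 9 with 5 kb flanks (2.65% of all genes), 6 were under 5% (2.16%) and 34 under 20% (17.1%), against 19 (5.76%). Over all CpGs with calls, 7 members were higher and 11 lower in H3K4me1, against 17 and 0. There Hoxa10 and Hoxb3, called higher at shared CpGs, were called lower, and the difference of Hoxb1 was -0.876 points. At shared CpGs against 100000 cells 1 was lower (Hoxc5). H3K4me1 peaks covered at least 50% of the window in 5 members, against 35 with any overlap, and in the run 2 list 15.9% of cluster bases, against 25.03%. The list from 4000 cells overlapped 10 members, against 38, and covered 3.57% of bases, against 93.3%. Bins at 70% or more numbered 52, against 106 at 50%.

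With HoxB without its gap, HoxD minus HoxB was 0.863 points. With HoxB from Hoxb9 to Hoxb1, both chosen after seeing the data, HoxB minus HoxA was -0.675 points, HoxC minus HoxB 0.676 and HoxD minus HoxB 2.24. Leaving out each library gave HoxC minus HoxA from -0.334 (without 4000 cells) to 0.164 points. With H3K4me1 run 1, the differences of Hoxd4, Hoxd3 and Hoxb1 were 15.2, 8.84 and 9.57 points, against 7.52, 5.56 and 5.30. The cause of these changes was not tested. The other 78 values of main results kept within the rule set for their kind. Pooled levels stayed within their spread or interval, and differences between clusters kept their sign. Counts, peak cover and call ratios stayed within a set fold of the main value. That rule is loose: 25 members under 10% at 4000 cells, against 19 at 250000 cells, passed it.

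No paired analysis was possible because, between marks, the run numbers only mark repeat sequencing of 1 library, the H3K27me3 libraries carry no such number and the test compares single libraries. The comparison between clusters is paired by library throughout. Depth limits most the library from 4000 cells and H3K9me3, where 32 of 38 members had fewer than 20 calls in run 2.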
